A study of Mus musculus with 6 samples.

Results

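A set of 6 genes of the DNA methylation machinery was followed in the reduced representation bisulfite data of mouse kidney: Dnmt1, Uhrf1, Dnmt3a, Dnmt3b, Tet1 and Tet3. Their members are the CpG sites that lay inside a fixed span of the mm9 genome around each gene and that were covered by at least 10 reads in all 6 libraries. These were 721 of the 943307 CpG sites so covered in the whole series: 76 at Dnmt1, 108 at Uhrf1, 191 at Dnmt3a, 62 at Dnmt3b, 86 at Tet1 and 198 at Tet3. The level of a site is the percent of its covering reads called methylated. The rule for the members used no measured level, but the spans were chosen with earlier results of these data known. Only DNA methylation was measured, so nothing below speaks of how much RNA or protein these genes made.

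All libraries came from cortex and outer medulla of kidneys of male, wild-type C57BL/6J mice, with 2 libraries in each of 3 groups. In the UUO 5AZA group the left ureter had been ligated and cut (unilateral ureteral obstruction, UUO, a model of kidney fibrosis) 7 days earlier, and the mice received 5AZA in saline by daily intraperitoneal injection at 1 mg/kg per day. In the UUO saline group the same obstruction of 7 days was combined with daily saline. Sham mice had the operation with no ligation; sham 1 belonged to the obstruction model, whereas the label of sham 2 ties it to kidney ischemia/reperfusion and carries 48 hours in its name. No 5AZA library of unobstructed kidney was analysed here. No label states whether the libraries of a group came from separate animals, so every p below measures the spread between libraries, which may be technical, except that of Fisher's exact test, which measures counting error only. A piece of kidney holds many cell types, and a change of level inside cells and a change in the mix of cells cannot be told apart in these data.

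Dnmt1 copies methylation onto the new strand after replication, and Uhrf1 brings it to hemimethylated DNA. Dnmt3a and Dnmt3b place methylation at CpGs that had none. Tet1 and Tet3 oxidise 5-methylcytosine, the first step of its removal, and bisulfite sequencing reads 5-hydroxymethylcytosine as methylated. The short name 5AZA commonly stands for azacytidine-type nucleoside analogs, which trap DNA methyltransferases on DNA; the labels give no fuller name. Promoters of widely used genes usually lie in CpG islands free of methylation, while CpGs elsewhere in the genome are mostly methylated.

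Covering reads summed over all sites ranged from 37728517 (sham 2) to 76730132 (saline 1). At the 721 member sites the median coverage was 47 and 46 reads in the 5AZA libraries, 64 and 54 reads in the saline libraries, and 53 and 34 reads in sham 1 and sham 2. Sham 2 was the shallowest library and also stood apart in level: at sites with a mean level under 20% it was the lowest of the 6 libraries in all 6 genes, as it was over the whole series (1.43% against 2.39% to 2.86% in the others). The window differences from sham named below, and the span means of saline against sham, are therefore given with and without it. Reads carry no molecular identifiers, so copies made by PCR count as separate reads, and the intervals below cover counting error only.

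Each of the 6 genes had a promoter with little methylation outside MspI sites in all 3 groups. Promoter sequences of RefSeq (build GRCm38.p6, 250 bases before and 50 after each start) were placed on the mm9 positions of the files where every covered CpG of 1 unique stretch fell on a CpG of the sequence. Of 11 promoter sequences of the 6 genes, 7 were placed in this way, at least 1 for each gene, and together they held 133 covered CpGs. The sequences below, read in the direction of the gene and ending at the base before its start, show how these CpGs are laid out. Capitals mark the CpGs covered in all libraries (CG) and, where such a CpG belongs to the MspI recognition site, the whole CCGG. CpGs in lower case were not covered, except where a covered CG or CCGG runs past the last printed base. The last CpG of the Uhrf1 promoter is such a case: it was covered, lies in a CCGG and had a mean level of 73.2%. Coordinates are mm9.

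The first pair are the promoters of the maintenance genes, Dnmt1 (chr9:20757068-20757317, minus strand) and Uhrf1 (chr17:56443486-56443735, plus strand).
Dnmt1 promoter: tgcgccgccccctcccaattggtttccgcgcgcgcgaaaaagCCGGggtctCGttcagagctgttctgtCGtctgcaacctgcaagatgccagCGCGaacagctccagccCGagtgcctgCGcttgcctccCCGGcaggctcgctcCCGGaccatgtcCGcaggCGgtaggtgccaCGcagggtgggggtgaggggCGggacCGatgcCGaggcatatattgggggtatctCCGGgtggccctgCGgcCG
Uhrf1 promoter: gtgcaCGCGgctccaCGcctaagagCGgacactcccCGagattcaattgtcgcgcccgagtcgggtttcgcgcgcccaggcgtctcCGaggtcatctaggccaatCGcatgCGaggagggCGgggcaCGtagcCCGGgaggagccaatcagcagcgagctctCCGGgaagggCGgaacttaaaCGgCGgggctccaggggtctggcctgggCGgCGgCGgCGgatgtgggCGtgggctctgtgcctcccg

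The next pair are the first promoter of Dnmt3a (chr12:3806730-3806979, plus strand), with the most covered CpGs of the 7, and an internal promoter of the same gene (chr12:3891494-3891743, plus strand). The internal promoter is shown because its levels outside CCGG differed from those of the 7 placed promoters.
Dnmt3a first promoter: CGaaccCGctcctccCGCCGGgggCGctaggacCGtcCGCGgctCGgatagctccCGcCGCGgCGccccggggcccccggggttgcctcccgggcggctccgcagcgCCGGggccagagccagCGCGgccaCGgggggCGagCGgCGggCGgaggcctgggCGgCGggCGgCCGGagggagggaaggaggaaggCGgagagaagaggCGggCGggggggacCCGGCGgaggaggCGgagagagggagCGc
Dnmt3a internal promoter: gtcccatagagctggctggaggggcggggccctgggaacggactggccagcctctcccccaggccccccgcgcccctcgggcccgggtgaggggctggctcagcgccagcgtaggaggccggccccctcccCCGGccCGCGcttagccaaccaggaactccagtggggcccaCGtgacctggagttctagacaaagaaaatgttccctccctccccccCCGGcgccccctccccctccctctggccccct

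Tet3 (chr6:83391673-83391922, minus strand) is shown because the span of this gene held the single window that passed the test further below.
Tet3 promoter: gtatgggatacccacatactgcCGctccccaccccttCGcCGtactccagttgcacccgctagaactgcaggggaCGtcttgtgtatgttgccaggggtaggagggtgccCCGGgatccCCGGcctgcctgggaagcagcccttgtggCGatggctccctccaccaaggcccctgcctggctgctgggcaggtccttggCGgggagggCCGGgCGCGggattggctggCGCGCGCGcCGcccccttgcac

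The recognition site divided these promoter CpGs into separate groups of levels. CCGG, which reads the same on both strands, occurs in 52.8% of all RefSeq promoters in the table. The 112 covered CpGs outside CCGG had mean levels from 0 to 6.67%, whereas the 21 CpGs inside a CCGG had mean levels from 56.8% to 83.7%, with no overlap. Outside CCGG the mean level was 1.67% and 1.76% in the 5AZA libraries, 1.63% and 2.18% in the saline libraries, and 1.86% and 0.759% in sham 1 and sham 2. Inside CCGG it was 74.0% and 74.7% with 5AZA, 73.9% and 73.1% with saline, and 74.1% in sham 1 and 69.5% in sham 2. The libraries differed far less than the 2 kinds of CpG did, as the plot of promoter CpGs by library shows.

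Promoter averages elsewhere in the genome were divided in a similar way, although single CpGs were not compared there. Of 32851 promoter sequences 7001 were placed, and 95.8% of the 6997 with at least 5 covered CpGs outside CCGG had a mean under 5% there; the median CCGG level of such promoters was 72.6%. MspI cuts at CCGG, and the labels' protocol fills in the cut ends with a nucleotide mix that holds methylated dCTP. A candidate fragment end was defined here either by coverage close to the sum of both neighbours or by level, as a high site in an otherwise unmethylated CpG-dense window. All 21 CCGG CpGs and 1 CpG outside CCGG met this definition, but only 4 of the 21 met the coverage part, and 17 qualified by their level alone. The part of the fill-in in these levels was not tested. Of the 721 sites, 92 met the definition, 30 of them by coverage. Averages over sites of a low, intermediate or high level leave these 92 out, while span means and the levels of 1 kb windows include them.

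**Figure D1:**
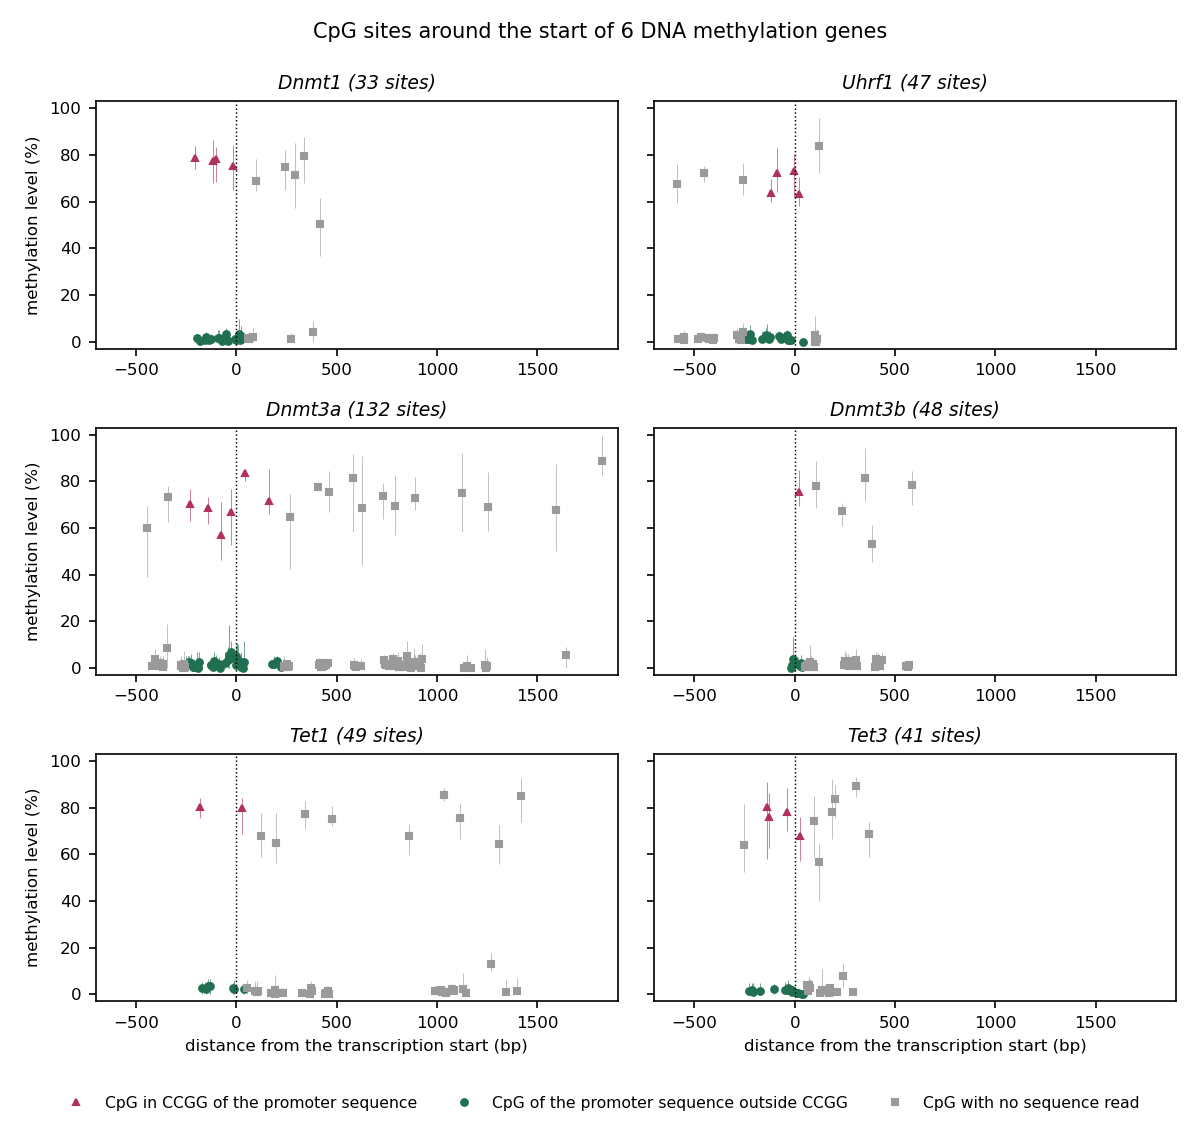
Methylation level (%) of each covered CpG against its distance from the transcription start (bp) in the 6 genes; symbols are means over the 6 libraries and vertical lines run from the lowest to the highest library. CpGs outside CCGG lie between 0 and 6.67%, CpGs in a CCGG of the promoter sequence between 56.8% and 83.7%, and squares are CpGs for which no sequence was read.

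**Figure D2:**
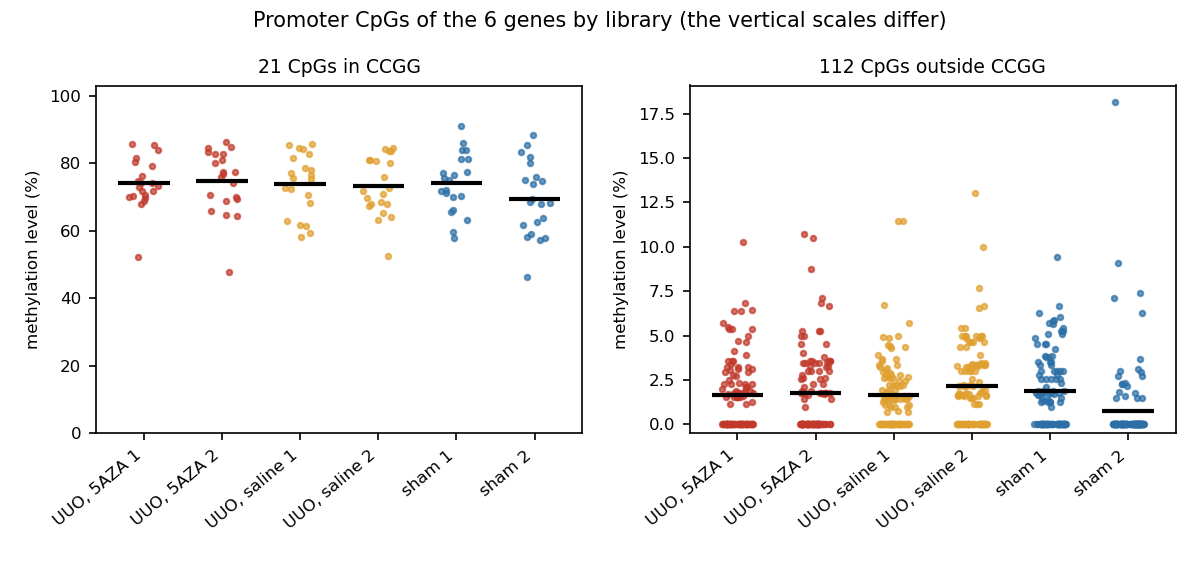
Levels (%) of the 21 promoter CpGs in CCGG and the 112 outside it, 1 point per CpG, in each library; black bars are library means. Outside CCGG the means lie between 0.759% (sham 2) and 2.18% (saline 2), and inside it between 69.5% (sham 2) and 74.7% (5AZA 2).

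The promoters of the maintenance genes had low levels in every library. At Dnmt1, the 18 covered CpGs outside CCGG averaged 1.40% and 0.88% in the 5AZA libraries, 1.24% and 1.03% with saline, and 2.49% and 0.64% in sham 1 and sham 2. At Uhrf1, 19 such CpGs averaged 0.75% and 1.86% with 5AZA, 1.37% and 3.17% with saline, and 1.22% and 0.19% in sham 1 and sham 2. At Dnmt1 no group separated from another, while at Uhrf1 the saline libraries were both above the pair of sham libraries, and the 5AZA libraries overlapped with both groups. The widest counting interval at Dnmt1, in sham 1, ran from 1.63% to 3.42% (95% Wilson interval on pooled reads).

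For the de novo enzymes, the first promoter of Dnmt3a averaged 2.34% and 2.61% with 5AZA, 1.93% and 2.09% with saline, and 1.81% and 1.33% in sham 1 and sham 2 over 34 CpGs outside CCGG, with both 5AZA libraries above the other 4 by small margins. A second start 180 bases further on shares many of these CpGs and averaged 2.73%. With candidate fragment ends left out, low sites at Dnmt3a ran on from 421 bases before the first start to 1642 bases after it. Of the 132 covered sites of the stretch around this start, 20 were candidate ends with mean levels from 56.8% to 88.8%. Dnmt3b averaged 1.26% and 0.45% with 5AZA, 1.60% and 2.50% with saline, and 0.95% and 0.95% in the sham libraries over 10 CpGs, so that both saline libraries lay above the other 4; the permutation test of 2 libraries against 2 cannot go below p = 0.33 and gave that value.

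Among the oxidases, Tet1 averaged 3.44% and 3.72% with 5AZA, 1.39% and 3.01% with saline, and 3.27% and 1.77% in sham 1 and sham 2 over 7 CpGs, where the 5AZA libraries were again the highest pair. With candidate fragment ends left out, low sites at Tet1 reached from 174 bases before to 1397 bases after the start. Of the 49 covered sites of this stretch, 11 were candidate ends with mean levels from 64.5% to 85.6%. Tet3 averaged 1.08% and 0.63% with 5AZA, 1.85% and 2.50% with saline, and 1.93% and 0.17% in sham 1 and sham 2 over 17 CpGs. The saline libraries were above the 5AZA libraries at Tet3, sham 1 lay between the saline libraries, and sham 2 was the lowest library.

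Other genes listed with DNA methylation had promoter levels in the same range. A list of 25 further genes, among them Tdg (which excises oxidised cytosines), Hells (a chromatin remodeller), Mbd4, Usp7 and Mat2a, had placed promoters for 15 genes. All 19 of these promoters were under 5% outside CCGG, as were 95.8% of the 6997 placed promoters with at least 5 such CpGs. Their means ran from 0.431% to 4.78% with a median of 1.35%, next to a median of 1.69% over the 6997. A pair of Kdm2b starts shared the same 10 covered CpGs, so the 19 are not all separate promoters. Of the 18 windows of 1 kb that held them, 0 passed an adjusted p of 0.05 in any of the 3 comparisons (edgeR's quasi-likelihood test); at an unadjusted p under 0.05 there were 1 for 5AZA against saline, 0 for saline against sham and 2 for 5AZA against sham, next to 23.2%, 10.4% and 14.7% of all windows of the series.

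A promoter that was not low was found inside Dnmt3a. The RefSeq table holds an internal start 84764 bases after the first one. Its 3 covered CpGs outside CCGG had mean levels of 26.6%, 28.8% and 30.3%, and its 2 CpGs in CCGG had 63.9% and 66.2%. Outside CCGG the mean level was 22.0% and 36.0% in the 5AZA libraries, 19.4% and 35.0% in the saline libraries, and 32.8% and 26.2% in sham 1 and sham 2. Outside CCGG, libraries of the same group thus differed by more than the groups did. Its 2 CpGs in CCGG averaged 60.4% and 61.5% with 5AZA, 72.8% and 79.1% with saline, and 58.9% and 57.4% in sham 1 and sham 2, so that the saline libraries lay above the other 4, on 35 to 78 reads per library; the exact permutation p of each pair of groups was 0.33, the smallest possible. Of the 6997 placed promoters with enough CpGs, 69 (0.986%) had a mean of 20% or more outside CCGG. With 3 such CpGs the internal promoter could not enter that set, so this share does not measure how rare its level is. This promoter was placed by a looser rule, chosen after its values were seen: 3 or more covered CpGs at the same distance from the first start as in the RefSeq table.

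A pair of other CpG-rich stretches consisted mostly of CpGs with little methylation in all libraries. From 14386 to 15373 bases before the Tet3 start, 90 sites were covered, and the 77 low ones averaged 1.96% and 1.71% with 5AZA, 1.88% and 1.84% with saline, and 1.69% in sham 1 and 0.44% in sham 2. The second lay 21260 to 22260 bases after the Uhrf1 start, with 37 low sites that averaged 1.22% and 1.28% with 5AZA, 1.48% and 2.68% with saline, and 2.28% in sham 1 and 0.59% in sham 2. The other 13 sites of the Tet3 stretch, 12 of them candidate fragment ends, had mean levels from 64.2% to 86.3%, and the other 6 of the Uhrf1 stretch, all candidate ends, from 49.1% to 84.6%. No promoter of the RefSeq table was placed at either. Both stretches were chosen after their levels were seen. In each, sham 2 was the lowest library; at the Tet3 stretch sham 1 also lay just below the other 4 libraries, and at the Uhrf1 stretch no group stood apart from both others.

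At the highly methylated CpGs, the 5AZA libraries were lower than the saline and sham libraries in 5 of the 6 genes. Over the 184 member sites with a mean level of at least 80%, the level was 91.4% and 90.0% in the 5AZA libraries, 94.2% and 94.1% in the saline libraries, and 93.7% and 93.8% in sham 1 and sham 2. Both 5AZA libraries lay below all 4 others. The mean difference of 5AZA minus saline was -3.41 percentage points, next to -3.35 points over the 286081 such sites of the series. Of the 184 sites, 134 were lower and 46 higher with 5AZA than with saline. Over the series 215706 of the 286081 such sites were lower and 65541 higher. The whole series also had 5AZA libraries (91.3% and 90.3%) below the saline (94.1% in both) and sham libraries (93.6% and 92.8%), so this order was not particular to these genes.

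The size of this difference varied by gene. Dnmt1 had 92.1% and 91.0% with 5AZA, 94.0% and 94.5% with saline, and 93.5% and 93.4% in sham 1 and sham 2 over 40 sites. Uhrf1, over 15 sites, had 93.3% and 89.6% with 5AZA, 95.8% and 96.1% with saline, and 96.2% and 95.2% in the sham libraries. The libraries of the maintenance genes therefore did not overlap between 5AZA and either other group, as over the whole series.

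Dnmt3a had 89.4% and 88.8% with 5AZA, 92.2% and 93.1% with saline, and 91.8% and 91.9% in sham 1 and sham 2 over 37 sites. Dnmt3b was the exception, with 96.2% and 94.2% with 5AZA, 94.0% and 94.7% with saline, and 96.0% and 96.4% in the sham libraries, but it rests on 10 sites. There 5AZA 1 lay above both saline libraries, and 5AZA 2 lay between them.

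Tet1 had 91.2% in both 5AZA libraries, 94.4% and 93.9% with saline, and 93.9% and 95.2% in sham 1 and sham 2 over 27 sites. Tet3 had 91.2% and 88.9% with 5AZA, 95.2% and 93.8% with saline, and 93.9% and 93.7% in the sham libraries over 55 sites. At Tet3 and Uhrf1 the difference of 5AZA minus saline was -4.49 points, at Dnmt1 -2.75 points. Exact two-sided permutation tests of these library means cannot go below p = 0.33 with 2 libraries against 2, so none of the differences between genes or groups can pass a threshold on this measure.

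**Figure D3:**
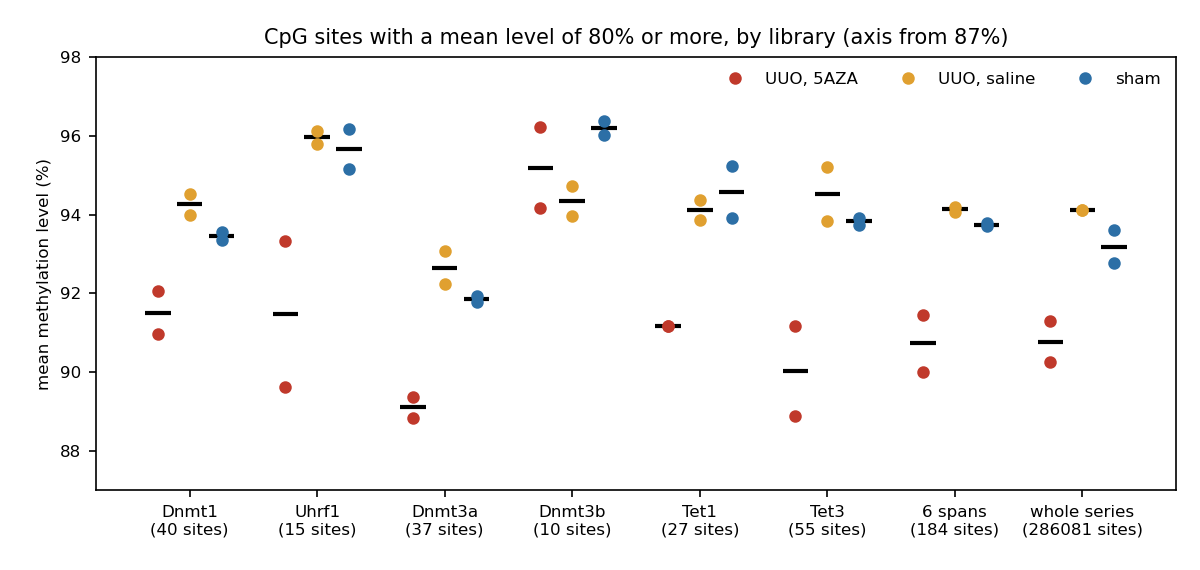
Mean methylation level (%) of the CpG sites with a mean of 80% or more, by gene, over the 6 spans and over the whole series; each point is a library and each bar a group mean (n = 2), and the axis starts at 87%. The 5AZA libraries lie below the saline and sham libraries in every gene except Dnmt3b.

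Sites of intermediate level were fewer and spread more. The 43 sites between 20% and 80% averaged 61.7% and 59.9% with 5AZA, 66.7% and 67.8% with saline, and 65.3% in sham 1 and 60.2% in sham 2. The mean difference of 5AZA minus saline was -6.38 points, next to -6.01 over the series, and that of saline minus sham was 4.45 points, next to 4.85 over the series. The 402 low sites averaged 1.77% and 1.57% with 5AZA, 1.85% and 2.00% with saline, and 1.83% and 0.59% in sham 1 and sham 2.

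Averaged over all covered sites of a span, candidate fragment ends included, the 5AZA libraries were below the saline libraries in all 6 genes by 0.89 to 2.03 points. This direction depends on weighting each site equally: as methylated over covering reads summed per span, 5AZA minus saline was 3.32 points at Dnmt1, 0.52 at Dnmt3a and 1.13 at Tet1. As site means, Dnmt1 had 61.3% and 60.3% with 5AZA, 62.3% and 62.6% with saline, and 62.5% and 60.9% in sham 1 and sham 2. Uhrf1 had 25.7% and 25.1% with 5AZA, 26.3% and 26.7% with saline, and 25.8% and 24.7% in sham 1 and sham 2. In none of the 6 genes did the 5AZA libraries separate from the sham libraries on this measure.

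Dnmt3a had 31.6% and 31.3% with 5AZA, 32.1% and 32.5% with saline, and 32.4% and 30.7% in the sham libraries. Dnmt3b had 28.7% and 27.2% with 5AZA, 28.9% and 29.5% with saline, and 28.4% and 27.6% in the sham libraries. For both de novo enzymes sham 1 was above sham 2, and at Dnmt3a the sham libraries enclosed those of 5AZA.

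Tet1 had 44.3% and 44.8% with 5AZA, 46.2% and 45.9% with saline, and 45.4% and 44.4% in the sham libraries. Tet3 had 39.3% and 38.5% with 5AZA, 41.3% and 40.6% with saline, and 40.5% and 38.3% in the sham libraries. The differences of 5AZA minus saline were -1.53 and -2.03 points, next to -2.04 points over all 943307 sites. Each of the 18 exact permutation tests of span means gave 0.33 or more.

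The comparison of 5AZA with saline in obstructed kidney addressed the effect of the drug on these genes. In 1 kb windows with at least 3 covered sites, 1 of the 49 windows in the 6 spans was called at an adjusted p under 0.05, a fall at Tet3, where 1.56% of all 89813 windows of the series were called lower and 0.00445% higher (edgeR's quasi-likelihood test, Benjamini-Hochberg over all windows). At an unadjusted p under 0.05 there were 15 of 49, next to 23.2% over the series. Both 5AZA libraries were below both saline libraries in 26 windows (53.1%, next to 49.1% over the series) and above both in 3 (6.12%, next to 5.69%). Both shares were close to those of the series.

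The fall lay 36989 to 37212 bases after the Tet3 start (chr6:83354001-83355000 in mm9), in a window of 13 CpGs with no candidate fragment end. Its level was 88.7% and 87.7% in the 5AZA libraries, 95.0% and 93.1% in the saline libraries, and 91.7% and 89.1% in sham 1 and sham 2. The 95% Wilson intervals were 86.2 to 90.7% and 84.7 to 90.2% with 5AZA, against 93.5 to 96.2% and 91.0 to 94.7% with saline, on 552 to 1027 reads. The window averaged 88.2% ± 0.69 with 5AZA and 94.1% ± 1.38 with saline (SD, n = 2 each). The difference was -5.89 points, with an edgeR p of 0.000325 and an adjusted p of 0.0428.

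The 5AZA libraries did not overlap with the saline libraries, and the sham libraries lay between the 2 groups. Of the 13 CpGs, 11 were lower with 5AZA than with saline, and at 7 both 5AZA libraries were below both saline libraries. Neighbouring CpGs share reads and are not independent. Of the 286081 highly methylated CpGs of the series, 215706 were lower and 65541 higher with 5AZA. At 37.1% of them both 5AZA libraries were below both saline libraries. The window was picked by its p in this comparison, so its site counts are no separate test. Site differences in the window ran from -16.2 to 3.16 points. Whether the window is exonic or intronic was not determined, since no mm9 annotation was used.

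The call stood close to the threshold. It was lost when any 1 of the 6 libraries was left out, with adjusted p from 0.0582 to 0.205, and the difference then ran from -6.87 to -4.92 points. It was also lost with limma (adjusted p = 0.154) and without candidate fragment ends (adjusted p = 0.133), a setting under which 0 windows of the whole series were called; over all alternatives its adjusted p ran from 0.00675 to 0.205.

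**Figure D4:**
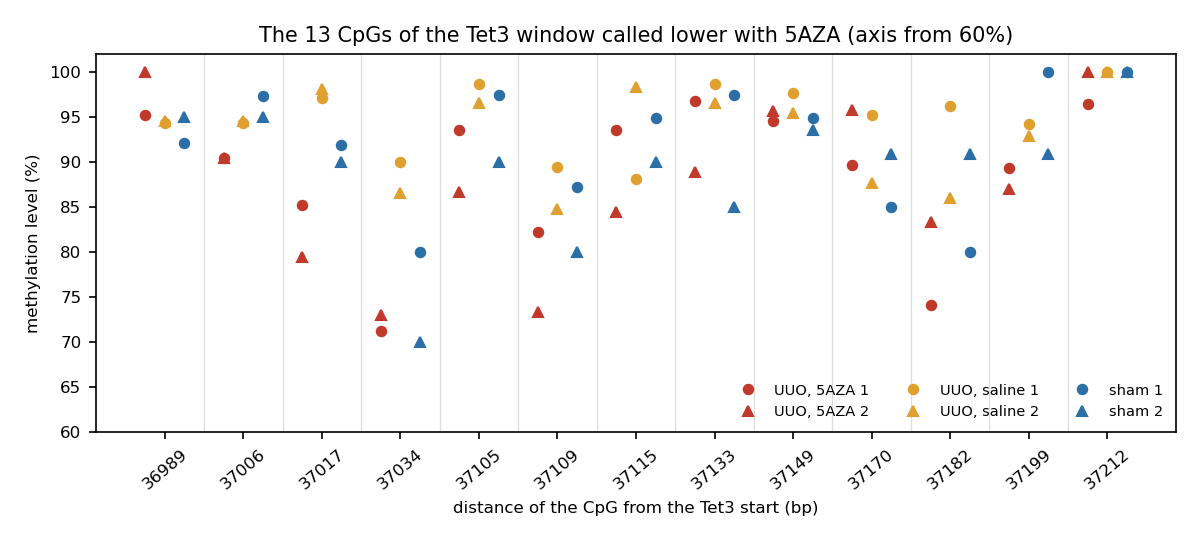
Methylation level (%) of the 13 CpGs of the Tet3 window in each library, in order of distance from the Tet3 start (bp); colours are groups and symbols the 2 libraries of each, and the axis starts at 60%. Both 5AZA libraries lie below both saline libraries at 7 CpGs, and the sham libraries overlap with both groups.

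The other Tet3 windows had differences of the same sign. All 12 windows of the gene were lower with 5AZA than with saline, 9 with no overlap (49.1% of the series), although 11 did not pass the test. Of the 8 with a mean of 80% or more 7 did not overlap, next to 62.1% of such windows of the series. The next smallest p belonged to the window at 83318001, 72866 bases after the start or further, with 85.1% and 83.2% with 5AZA, 91.1% and 89.6% with saline, and 88.5% and 84.8% in sham 1 and sham 2 (difference of 5AZA minus saline -6.17 points, edgeR adjusted p = 0.0596). It was chosen after its values were seen.

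In the remaining genes, the window with the smallest p for 5AZA against saline stayed above the threshold. At Dnmt1, the window at 20735001, 21338 bases or more after the start, had 92.7% and 91.1% with 5AZA, 96.7% and 96.5% with saline, and 94.2% and 97.9% in sham 1 and sham 2 (difference -4.65 points, edgeR adjusted p = 0.0838). At Uhrf1, 13766 bases or more after the start (window at 56457001), the level was 94.7% and 92.8% with 5AZA, 97.1% and 97.0% with saline, and 97.8% and 96.7% in the sham libraries (-3.30 points, edgeR adjusted p = 0.0909). In both windows the 5AZA libraries were the lowest of the 6.

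At Dnmt3a the window at 3896001, of 3 CpGs, had 87.9% and 88.3% with 5AZA, 95.3% and 95.4% with saline, and 94.5% and 94.2% in the sham libraries (-7.22 points, edgeR adjusted p = 0.117). Dnmt3b had 91.6% and 80.2% with 5AZA, 91.8% and 95.5% with saline, and 92.4% and 91.7% in the sham libraries at 153502001 (-7.76 points, edgeR adjusted p = 0.141), where 5AZA 2 alone stood low. At Tet1 the window at 62302001 had 95.2% and 93.4% with 5AZA, 98.5% and 99.0% with saline, and 97.5% in both sham libraries (-4.48 points, edgeR adjusted p = 0.0624).

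Near the start of Tet1 a window had higher levels with 5AZA than with saline, without passing the test. The window at 62348001, 1073 to 1420 bases after the start and holding 3 candidate fragment ends among 11 sites, had 23.9% and 25.6% with 5AZA, 16.1% and 19.6% with saline, and 24.3% and 20.3% in sham 1 and sham 2 (6.91 points, edgeR adjusted p = 0.0922). Both 5AZA libraries were above both saline libraries, and sham 1 was level with them. The window was chosen after its values were seen. Its level sums reads over low sites and candidate ends alike, and its difference without the ends is not given here. Over the whole low stretch at this start sites were also weighted equally. There 5AZA minus saline was 0.45 points at 38 low sites and -0.24 points at 11 candidate ends.

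**Figure D5:**
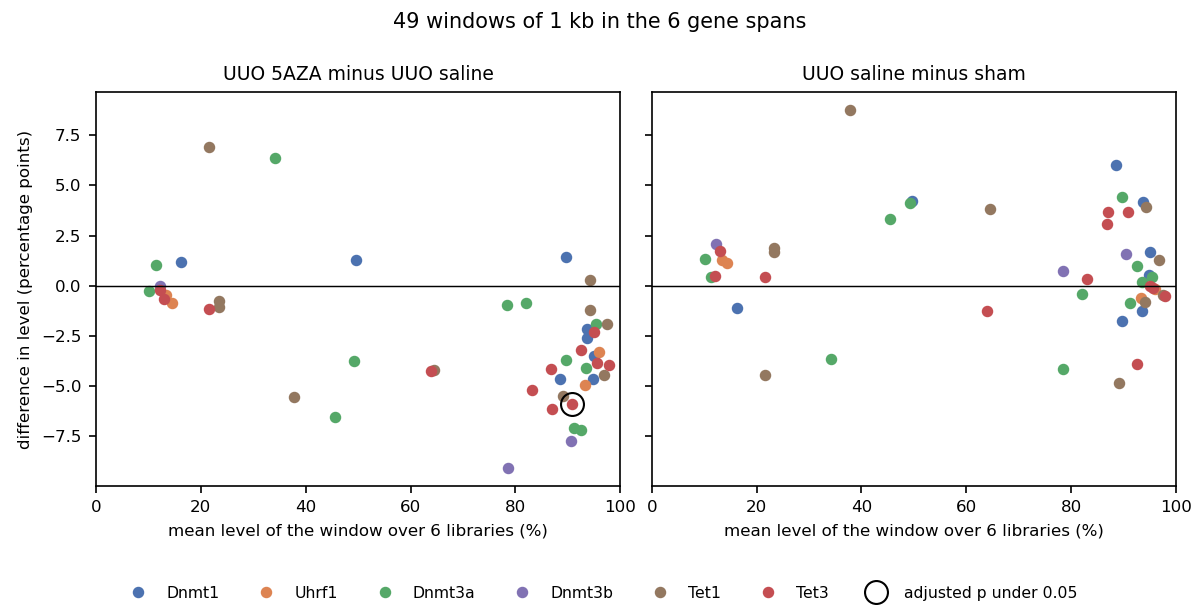
Difference in methylation level (percentage points) of each of the 49 windows against its mean level over 6 libraries (%), for 5AZA minus saline and for saline minus sham; colours are genes. Of 28 windows with a mean of 80% or more, 26 lie below 0 in the left panel, and the circle marks the Tet3 window with an adjusted p of 0.0428; in the right panel 16 of the 28 lie above 0.

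The comparison of saline-treated obstruction with sham addressed whether kidney injury changed methylation of these genes. None of the 49 windows was called with edgeR's quasi-likelihood test (0.0501% of all windows of the series were), and limma called 0 as well. Of all windows of the series 0.0445% were called higher with saline and 0.00557% lower. In the spans 7 of 49 had an unadjusted edgeR p under 0.05, next to 10.4% over the series. Both saline libraries were above both sham libraries in 16 windows (32.7%, next to 32.3%) and below both in 3 (6.12%, next to 9.73%). In 4 genes the saline libraries were above both sham libraries in span mean, and in 3 genes without candidate fragment ends. Over all 943307 sites the saline libraries were also above, at 45.3% each against 44.4% in sham 1 and 42.9% in sham 2 (1.61 points).

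The smallest p was at Dnmt1, 8166 bases or more after the start (window at 20748001), with 91.9% and 92.2% with saline and 88.0% and 84.1% in sham 1 and sham 2 (6.04 points, edgeR adjusted p = 0.254). There 5AZA libraries had 87.4% each, level with sham 1. The Tet3 window described above had a difference of 3.67 points between saline and sham (edgeR adjusted p = 0.354). Without sham 2 these differences were 4.12 and 2.34 points.

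At Tet1 the window at 62328001, intermediate in level, had 44.0% and 41.2% with saline and 34.4% and 33.3% in sham 1 and sham 2 (8.76 points, edgeR adjusted p = 0.453). The remaining genes had their smallest p in CpG-rich windows. Dnmt3b at 153475001, which holds its start, had 13.2% and 12.8% with saline and 11.6% and 10.2% in sham 1 and sham 2 (2.08 points, edgeR adjusted p = 0.410). Dnmt3a at 3806001 had 10.3% and 11.1% with saline against 10.3% and 8.5% in sham 1 and sham 2, and Uhrf1 at 56465001 had 13.6% and 14.2% against 13.0% and 12.2%. Each of these 3 CpG-rich windows holds 6 candidate fragment ends, and sham 2 was its lowest library. Without the candidate ends, saline minus sham was 1.18 points at Dnmt3b, against 2.08 with them, 0.45 at Dnmt3a, against 1.31, and 0.50 at Uhrf1, against 1.28. Without sham 2 it was 1.35 points at Dnmt3b, 0.38 at Dnmt3a, 0.90 at Uhrf1 and, in the Tet1 window, 8.23.

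The span means show how far sham 2 carried this comparison. Saline minus sham was 0.76 points at Dnmt1, 0.77 at Dnmt3a, 1.17 at Dnmt3b, 1.18 at Tet1, 1.55 at Tet3 and 1.23 at Uhrf1. Without sham 2 it was -0.06 points at Dnmt1, -0.07 at Dnmt3a, 0.77 at Dnmt3b, 0.71 at Tet1, 0.50 at Tet3 and 0.70 at Uhrf1. Without sham 2, 3 of the 49 windows had an unadjusted edgeR p under 0.05 (7.47% of the series) and 0 were called (0.00111% of the series).

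The comparison of 5AZA-treated obstructed kidney with sham set obstruction and drug together against the operated control; it shares libraries with each of the other comparisons. No window of the 49 was called with edgeR (0.00111% of the series, 1 window, was) or with limma, and 12 had an unadjusted edgeR p under 0.05, next to 14.7% over the series. Both 5AZA libraries were below both sham libraries in 20 windows (40.8%, next to 31.9%) and above both in 6 (12.2%, next to 12.9%). Among the 28 windows of high level, 24 were lower with 5AZA, with a median of -2.84 points next to -2.97 over the series.

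The smallest p was in the Uhrf1 window at 56457001 given above, at -3.45 points (edgeR adjusted p = 0.175). Tet1 at 62333001, of 4 CpGs, had 79.9% and 87.7% with 5AZA and 92.3% and 96.1% in sham 1 and sham 2 (-10.4 points, edgeR adjusted p = 0.184), with the saline libraries at 92.1% and 86.6%. Tet3 at 83352001 had 94.8% and 95.3% with 5AZA and 99.1% and 100% in sham 1 and sham 2 (-4.50 points, edgeR adjusted p = 0.221). Dnmt1 at 20713001, the window farthest from its start, had 91.5% and 91.9% with 5AZA against 97.0% and 93.3% in sham 1 and sham 2. Dnmt3a at 3896001 differed by -6.25 points and Dnmt3b at 153475001 by 2.04 points, with edgeR adjusted p of 0.305 and 0.286. In each of these 6 windows the 5AZA libraries did not overlap with the sham libraries, but the windows were picked by their p in this comparison. Without sham 2 the difference was -4.02 points at Uhrf1, -8.50 at Tet1, -4.04 at Tet3, -5.31 at Dnmt1, against -3.46 with it, -6.41 at Dnmt3a and 1.31 at Dnmt3b. The Dnmt3b difference of 2.04 points was 0.58 without the 6 candidate ends of that window. Without sham 2, 7 of the 49 windows had an unadjusted edgeR p under 0.05 (12.8% of the series) and 0 were called (0.00668% of the series).

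The window with the most CpGs in each gene lay at a start or in an unmethylated stretch. That of Dnmt3b at 153475001, given above for saline and sham, had 13.1% and 12.8% with 5AZA. Dnmt3a at 3807001, of 71 sites with 10 candidate fragment ends, had 12.9% and 11.6% with 5AZA, 11.9% and 10.4% with saline, and 11.3% and 10.2% in sham 1 and sham 2. Uhrf1 at 56443001 had 14.2% and 14.3% with 5AZA, 14.9% and 15.3% with saline, and 14.9% and 13.1% in the sham libraries. Tet3 at 83406001 had 13.1% in both 5AZA libraries, 14.2% and 13.3% with saline, and 12.5% and 11.6% in the sham libraries.

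Dnmt1 at 20757001 had 16.8% and 16.4% with 5AZA, 16.0% and 14.8% with saline, and 17.5% and 15.6% in the sham libraries. Tet1 at 62349001 had 22.5% and 24.4% with 5AZA, 22.6% and 25.9% with saline, and 23.5% and 21.2% in the sham libraries. These window levels rest on their candidate fragment ends, while the low CpGs of the 6 spans averaged 0.59% to 2.00%. None of the 6 passed an adjusted p of 0.05 in any comparison (edgeR).

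Single CpGs gave no call, in a test that recovered few or none of the changes put into simulated data. Of 696 member sites tested with edgeR, 0 passed an adjusted p of 0.05 in any comparison, where 0.00174% of the series passed for 5AZA against saline, 0.00283% for saline against sham and 0.00152% for 5AZA against sham. At an unadjusted p under 0.05 there were 29 for 5AZA against saline (4.17%, next to 5.21% over the series), 15 for saline against sham (2.16%, next to 3.99%) and 18 for 5AZA against sham (2.59%, next to 3.52%). Fisher's exact test on reads pooled by group, which ignores the spread between libraries, called 2 sites, both lower with 5AZA than with saline (0.287%, next to 0.672% of the series).

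The first lay in a CCGG of the internal Dnmt3a promoter printed above, 118 bases before that start (position 3891626). It had 64.3% and 48.6% with 5AZA, 78.0% and 92.5% with saline, and 57.1% and 56.5% in sham 1 and sham 2, on 23 to 41 reads. The sham libraries lay with the 5AZA libraries there. The second was a CpG of the called Tet3 window (position 83354655), with 85.2% and 79.5% with 5AZA, 97.1% and 98.1% with saline, and 91.9% and 90.0% in sham 1 and sham 2.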

How the data were processed

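Reduced representation bisulfite libraries were analysed from 6 deposited tables of CpG sites. The authors deposited counts of covering and of methylated reads per site and a fraction, which equals methylated over covering reads within 0.0005. Bowtie and mm9 are named, with no version, per the submitters' processing notes; how reads were trimmed, called and filtered is not given in the sources used here. Libraries were grouped by the treatment in the labels; sham 2 was kept in the sham group. The spans of the genes and the pathway list were chosen with earlier results of these data known.

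Sites with at least 10 reads in all 6 libraries were used. Methylated and unmethylated counts were summed over 1000 bp windows with at least 3 sites and tested with the quasi-likelihood functions of edgeR 4.0.16 under R 4.3.3 (an intercept per library plus a group effect, 1 common dispersion of 0.00632, edgeR's default trend of the spread with read depth). All 89813 windows were fitted and adjusted together, and 49 of them, holding 680 member sites, lay in the spans; the other 41 member sites were in no tested window. Single sites were tested in the same way (920122 sites, without those at 0 or full methylation throughout). The fits were tested on simulated data with known changes: the window fit recovered most of them, and the single-site fit few or none. Whether the window fit recovers differences as small as those of the named windows, or in windows of high or low level, was not tested. Span means were compared by exact two-sided permutation tests.

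A candidate fragment end was a site covered by as many reads as its 2 neighbours together, to within 5%, where each neighbour was at most 220 bp away and had 10% or more of those reads. A site of 30% or more also qualified if its window held 10 or more sites and their median was under 5%. RefSeq promoters (GRCm38.p6) were placed on mm9 by at least 8 covered CpGs; no positions were converted, and bases between the covered CpGs may differ between the builds. Named windows were, in each gene, those at an adjusted p under 0.05, otherwise the one with the smallest p in each comparison, and the one with the most sites. Alternatives were other coverage minimums (5, 20), no candidate ends, no deeply covered sites (top 0.1%), windows of 500 bp, at least 5 sites, limma 3.58.1, Fisher's exact test, no depth trend (added after the data were seen), a replicate block, only the 4 libraries compared, pooled reads per span, and each library left out.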

Additional observations from a re-analysis of the deposited data

How the results depend on the processing

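The count of called windows for 5AZA against saline, 1 of 49, was 0 without candidate fragment ends, with limma, with 500 bp windows, with no depth trend (added after the data were seen) and with only the 4 libraries compared, and it ranged from 0 to 0 when each library was left out. With the sample numbers of the 5AZA and saline libraries as a replicate block it was 4 of 49 (6886 over the series), but same-numbered libraries share only a number (the correlation of their deviations was 0.0762 over 89813 windows). No paired analysis was possible for comparisons with sham, because sham 2 carries no number of that series. The counts for the other 2 comparisons stayed at 0 in each alternative run. Fisher's exact test called 2 single sites for 5AZA against saline. The Tet3 window kept its direction in all 16 settings, from -6.87 to -4.92 points. The saline minus sham difference at the Uhrf1 window at 56465001 was -0.16 points with a minimum of 20 reads.

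Some span means reversed. As methylated over covering reads summed per span, 5AZA minus saline was 3.32 points at Dnmt1, 0.52 at Dnmt3a and 1.13 at Tet1; 5AZA minus sham was 4.07 at Dnmt1, 0.84 at Dnmt3b, 0.84 at Tet1, 2.10 at Tet3 and -1.15 at Uhrf1; saline minus sham was -2.06 at Dnmt3a and -0.30 at Tet1. These sums weight sites by reads, and the cause was not tested. 5AZA minus sham was 0.091 at Dnmt3b and -0.48 at Uhrf1 without candidate fragment ends, 0.35 at Tet1 with a minimum of 20 reads and -0.20 at Uhrf1 with a minimum of 5. With libraries left out, it ranged from -0.96 to 0.73 at Dnmt3a, -0.79 to 0.62 at Dnmt3b, -0.82 to 0.12 at Tet1, -1.54 to 0.58 at Tet3 and -0.40 to 0.66 at Uhrf1, and saline minus sham from -0.065 to 1.58 at Dnmt1 and -0.070 to 1.62 at Dnmt3a. 5AZA minus saline kept its sign in all 6 genes with libraries left out.

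Each group has 2 libraries, so a permutation test cannot pass 0.05. Sham 2 differs from the others in label, depth and low-site level, and these cannot be told apart. The assay covers CpGs near MspI sites, so most of each span was not measured.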
